A study of Mus musculus with 15 samples.

Results

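Mature strands of the microRNA (miRNA) genes Mir150 and Mir342 were followed across the whole-lung small RNA libraries of a bleomycin injury study. The members were the 4 rows of the deposited table named mmu-miR-150-5p, mmu-miR-150-3p, mmu-miR-342-3p and mmu-miR-342-5p, out of 1424 mature miRNAs (the mouse prefix mmu is left out below). All 4 passed the filter on low values, as did 818 miRNAs in all. The rule goes by name alone, but the strands were proposed with earlier results of these data known.

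A miRNA gene is transcribed as a hairpin, and its arms are cut out as a 5p and a 3p strand. The guide strand is loaded into the silencing complex and kept, while its partner, the passenger strand, is mostly degraded. A loaded strand finds messenger RNAs through its seed, bases 2 to 8, and lowers their output. The strand miR-150-5p is abundant in mature B, T and natural killer cells, represses the transcription factor Myb and is known to decline when lymphocytes are activated. The miR-342 hairpin lies in an intron of Evl, a gene for a regulator of the actin cytoskeleton, and its 3p strand is found in lymphoid and myeloid cells.

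The mice were WT C57BL/6 or homozygous on that background for R213G, a variant of extracellular superoxide dismutase (EC-SOD), the antioxidant enzyme of the extracellular space. All are labelled 11 weeks old. Each received 1 intratracheal dose of 100 uL, either bleomycin at 1 U/mL in phosphate-buffered saline (PBS) or PBS alone. Bleomycin breaks DNA and is a standard way to produce lung injury in mice. After 7 days the blood was washed out of the lungs with PBS given into the right ventricle. Whole lungs were then ground, so every cell type of the organ contributed. WT PBS had 3 libraries and each of the other groups (WT bleomycin, R213G PBS, R213G bleomycin) had 4. The mice were of both sexes, but no source tells the sex behind each library. Nothing states outright that each library is a separate mouse, so the p-values measure the spread between these libraries. All R213G libraries have lower sample codes than all WT libraries. Genotype and code range therefore cannot be told apart, nor can treatment and code order in WT, where every bleomycin code precedes every PBS code. In R213G, replicates 1 and 3 of both treatments have lower codes than replicates 2 and 4.

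Values are log2 of 1 plus a library-size-equalized count, a unit inferred from the numbers. The depth in reads is unknown, so the counting error of the values cannot be given. Library sums of equalized counts, in units of 1000000, were 20.69 to 24.76 in WT PBS, 19.09 to 21.19 in WT bleomycin, 21.78 to 23.23 in R213G PBS and 18.09 to 21.07 in R213G bleomycin. Because the sums were lower after bleomycin, some levels are also given in ppm, the strand's parts of 1000000 of its library's sum. Lung-typical miRNAs were abundant in all groups. Summed on the log2 scale, 2 endothelial strands of miR-126a lay between 19.63 and 20.24, 7 epithelial miRNAs between 18.01 and 18.53 and 4 smooth muscle miRNAs between 21.16 and 21.81.

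The RefSeq sequence table (GRCm38.p6) matched 3 of the 4 strands. They are shown 5′ to 3′ with the seed in capitals, because the seed sets which messenger RNAs a strand can recognise and the strands of 1 hairpin have unrelated seeds.
miR-150-3p: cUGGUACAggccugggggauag
miR-342-3p: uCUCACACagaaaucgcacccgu
miR-342-5p: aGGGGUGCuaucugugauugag
Among 1679 mature names in that table, 0 others share the seed of any of these 3 strands. It held a sequence for 1199 of the 1424 measured miRNAs, so the seeds of the others were not compared. The strands are 22, 23 and 22 bases long, so levels per base would stand in nearly the same order as the levels given. The strand miR-150-3p lies at chr7:45121798-45121819 on the plus strand, in the Mir150 gene, with no other gene of the GENCODE M21 basic set over it. The miR-342 strands lie at chr12:108658638-108658659 (5p) and chr12:108658680-108658702 (3p), also on the plus strand. Both are inside an intron of Evl (chr12:108554720-108688516), which is transcribed in the same direction. The Mir342 hairpin (chr12:108658620-108658718) is shown because both of its arms were measured, and capitals mark the mature strands, 5p first.
Mir342 hairpin: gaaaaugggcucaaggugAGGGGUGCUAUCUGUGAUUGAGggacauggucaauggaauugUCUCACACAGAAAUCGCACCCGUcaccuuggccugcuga

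Over the 15 libraries, miR-150-5p was the most abundant of the 4, with a mean log2 level of 16.10 and rank 38 of 1424. Next came miR-342-3p at 12.91 (rank 102). The partner strands were scarce, miR-150-3p at 7.57 (rank 310) and miR-342-5p at 7.28 (rank 330). In equalized counts these means are 71737 for miR-150-5p, 7764 for miR-342-3p, 193 for miR-150-3p and 159 for miR-342-5p. The dominant strand thus came from the 5p arm in miR-150 and from the 3p arm in miR-342. Every library held this order of the first 2 strands, since the lowest miR-150-5p value (15.47) was above the highest miR-342-3p value (13.39). The scarce strands overlapped, from 7.08 to 7.99 for miR-150-3p and from 6.74 to 7.88 for miR-342-5p.

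**Figure D1:**
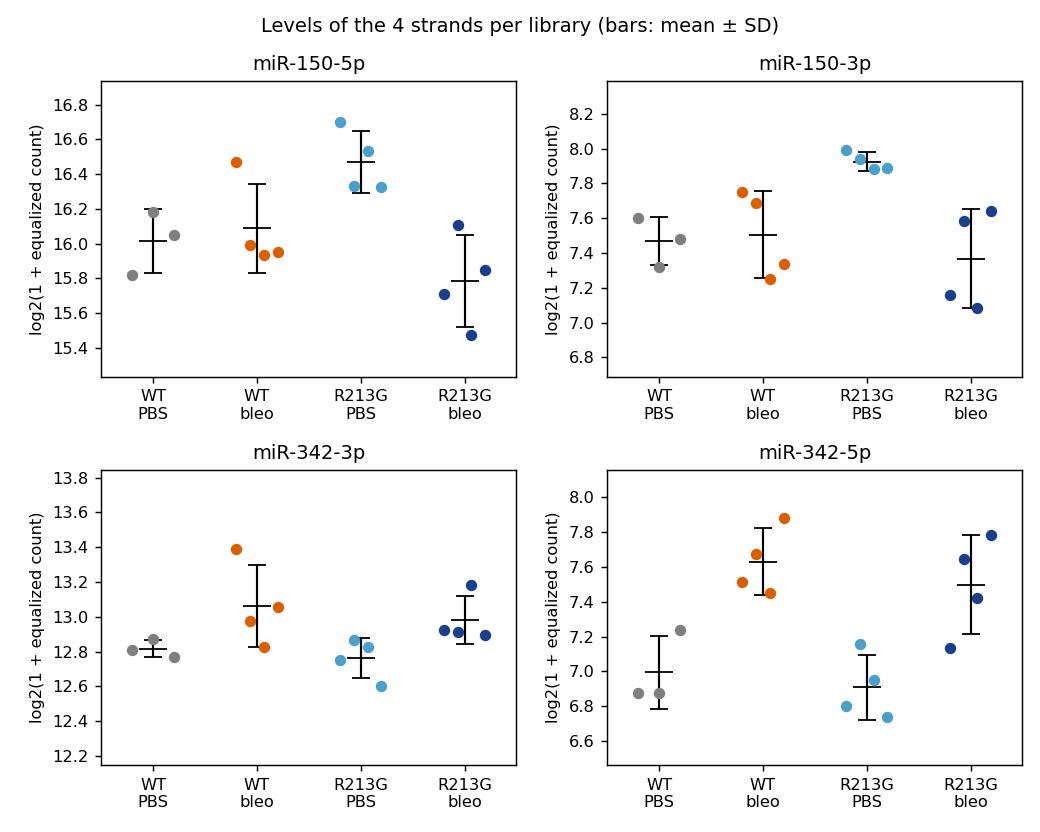
Log2 level (1 plus equalized count, vertical axis) of each strand in every library, by group; points are libraries and bars the mean ± SD of 3 (WT PBS) or 4 libraries. Both miR-150 strands sit highest in R213G PBS, and miR-342-5p is high in the bleomycin groups of both genotypes.

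The first question was whether the strands differ after bleomycin in WT lungs. There miR-342-5p rose, and the other 3 strands did not pass. The passenger strand miR-342-5p had log2 levels of 6.87, 6.87 and 7.24 after PBS and of 7.52, 7.67, 7.45 and 7.88 after bleomycin. All 4 bleomycin libraries lay above all 3 PBS libraries, as did 18.7% of the tested miRNAs. The log2 difference was 0.63 ± 0.18 (SE), a fold of 1.55, with an adjusted p of 0.0128 by limma. Of the 4 strands 1 was called in WT, against 26.7% of all 818 tested miRNAs (16.4% called higher, 10.3% lower), so a share of this size was also seen across the table. Without WT PBS replicate 1 or 2, the 2 lowest libraries, the difference was 0.57 with an adjusted p of 0.0551 and 0.0557, and with quantile normalization it was 0.48 (adjusted p = 0.0599).

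The guide strand miR-342-3p had WT log2 levels of 12.81, 12.87 and 12.77 after PBS and of 13.39, 12.98, 12.83 and 13.05 after bleomycin. Bleomycin replicate 1 was highest, and replicate 3 lay within the PBS range. The difference of 0.24 ± 0.12 (SE, 95% confidence interval -0.01 to 0.50) did not pass (limma, adjusted p = 0.152). The value moved with the scaling, to 0.13 (adjusted p = 0.532) with equal medians, 0.10 (adjusted p = 0.684) with quantile normalization and 0.42 (adjusted p = 0.0189) with equal sums. Without WT bleomycin replicate 1 it was 0.14 (adjusted p = 0.356). In ppm, miR-342-3p stood at 303 to 338 in WT PBS and at 343 to 530 in WT bleomycin.

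In WT lungs miR-150-5p had log2 levels of 15.82, 16.18 and 16.05 after PBS and of 16.47, 15.99, 15.94 and 15.95 after bleomycin. Bleomycin replicate 1 stood above all other WT libraries, and the other 3 lay inside the PBS range. The log2 difference of 0.07 ± 0.16 (SE) had a 95% confidence interval from -0.26 to 0.41 (limma, adjusted p = 0.766), which leaves room for a modest change either way. Its partner miR-150-3p had 7.60, 7.32 and 7.48 after PBS and 7.75, 7.69, 7.25 and 7.34 after bleomycin, and the groups overlapped. That difference was 0.04 ± 0.17 (SE, interval -0.31 to 0.39, adjusted p = 0.886). With equal library medians the WT differences were -0.04 for miR-150-5p and -0.08 for miR-150-3p, so neither has a settled sign.

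The same comparison was then made in R213G lungs. Both miR-150 strands fell and miR-342-5p rose, while miR-342-3p did not pass. For miR-150-5p the R213G log2 levels were 16.70, 16.33, 16.53 and 16.32 after PBS and 15.71, 16.10, 15.47 and 15.85 after bleomycin. Every bleomycin library lay below every PBS library, as was so for 17.4% of the tested miRNAs. The log2 difference was -0.69 ± 0.15 (SE, interval -0.99 to -0.38), a fold of 0.622, with an adjusted p of 0.00164 by limma. In replicates 1 and 3, which have the lower codes, the levels went from 16.70 and 16.53 to 15.71 and 15.47. The step was smaller in replicates 2 and 4, from 16.33 and 16.32 to 16.10 and 15.85. A code order term in R213G left the difference at -0.69 (limma, adjusted p = 0.00181). Whether the size of the fall differs with code was not tested. In ppm of the library sum the strand went from 3681 to 4574 after PBS to 2159 to 3725 after bleomycin, where the groups just overlap. In whole lung, fewer cells that carry a miRNA and less of it per cell cannot be told apart.

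The passenger strand miR-150-3p stood at 7.99, 7.94, 7.88 and 7.89 in R213G PBS, the narrowest spread of any group for this strand. After bleomycin it stood at 7.16, 7.58, 7.08 and 7.64, all below the PBS libraries, as for 17.4% of the tested miRNAs. In ppm the strand was at 10.7 to 10.9 after PBS and 6.39 to 11.0 after bleomycin, where the groups do overlap. It fell by 0.56 ± 0.15 (SE, interval -0.89 to -0.23) on the log2 scale (adjusted p = 0.00836). In the lower-coded replicates 1 and 3 it went from 7.99 and 7.88 to 7.16 and 7.08. The step was again smaller in replicates 2 and 4, from 7.94 and 7.89 to 7.58 and 7.64. Leaving out any 1 of the 15 libraries kept the R213G call of both strands, with differences from -0.79 to -0.58 for miR-150-5p and from -0.65 to -0.47 for miR-150-3p. The calls did not hold under every scaling. Quantile normalization brought miR-150-5p to -0.39 (adjusted p = 0.0702), and equal library sums brought miR-150-3p to -0.35 (adjusted p = 0.143). Equal library medians made them -0.82 and -0.69.

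In R213G miR-342-5p had log2 levels of 6.80, 7.16, 6.95 and 6.74 after PBS and of 7.14, 7.65, 7.42 and 7.78 after bleomycin. The groups met only where bleomycin replicate 1 fell just below PBS replicate 2. The rise was 0.59 ± 0.16 (SE, interval 0.24 to 0.93), with an adjusted p of 0.00859 by limma. It stayed called under each of the 4 scalings, at 0.46 with equal medians, 0.49 with quantile normalization and 0.80 with equal sums. For miR-342-3p the levels were 12.75, 12.86, 12.83 and 12.60 after PBS and 12.92, 12.91, 13.18 and 12.90 after bleomycin. All 4 bleomycin libraries were above all 4 PBS libraries, as for 21.9% of tested miRNAs, but the step was small. At 0.22 ± 0.11 (SE, interval -0.02 to 0.46) it did not pass (adjusted p = 0.136). It was 0.08 (adjusted p = 0.628) with equal medians, 0.13 (adjusted p = 0.465) with quantile normalization and 0.43 (adjusted p = 0.00743) with equal sums. Of the 4 strands 3 were called in R213G, against 42.1% of all tested miRNAs, with 2 lower (background 19.8%) and 1 higher (background 22.2%).

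**Figure D2:**
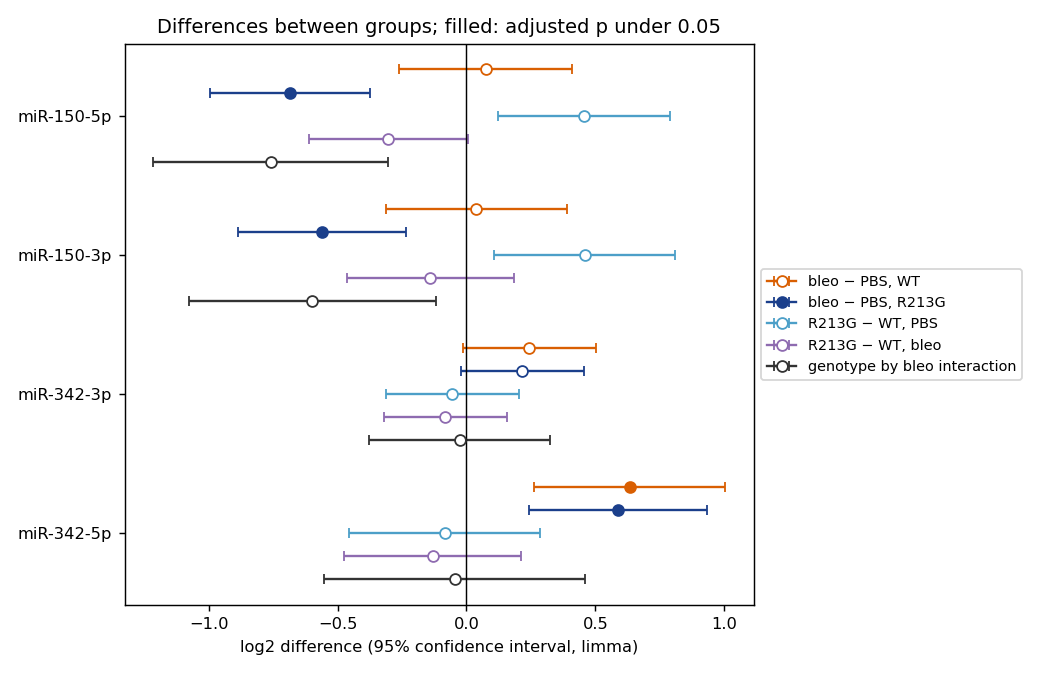
Log2 differences (horizontal axis) with 95% confidence intervals for each strand in 5 contrasts; filled points have an adjusted p under 0.05 by limma. The filled points are the R213G falls of miR-150-5p (-0.69) and miR-150-3p (-0.56) and the miR-342-5p rises of 0.63 in WT and 0.59 in R213G.

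How the libraries are put on a common scale matters for differences of this size. The median tested miRNA differed by 0.05 in both genotypes in the deposited values, by -0.07 in WT and -0.08 in R213G with equal medians, and by 0.22 and 0.27 with equal sums. Relative to the deposited median, miR-150-5p stood at 0.03 in WT and -0.74 in R213G. On that footing miR-342-5p stood at 0.59 and 0.53, and miR-342-3p at 0.20 and 0.16. The balance of all calls moved too. In WT 134 were higher and 84 lower as deposited, 110 and 121 with equal medians, 114 and 108 with quantile normalization and 193 and 39 with equal sums. In R213G the split was 182 and 162, then 148 and 199, 162 and 173, and 245 and 76.

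**Figure D3:**
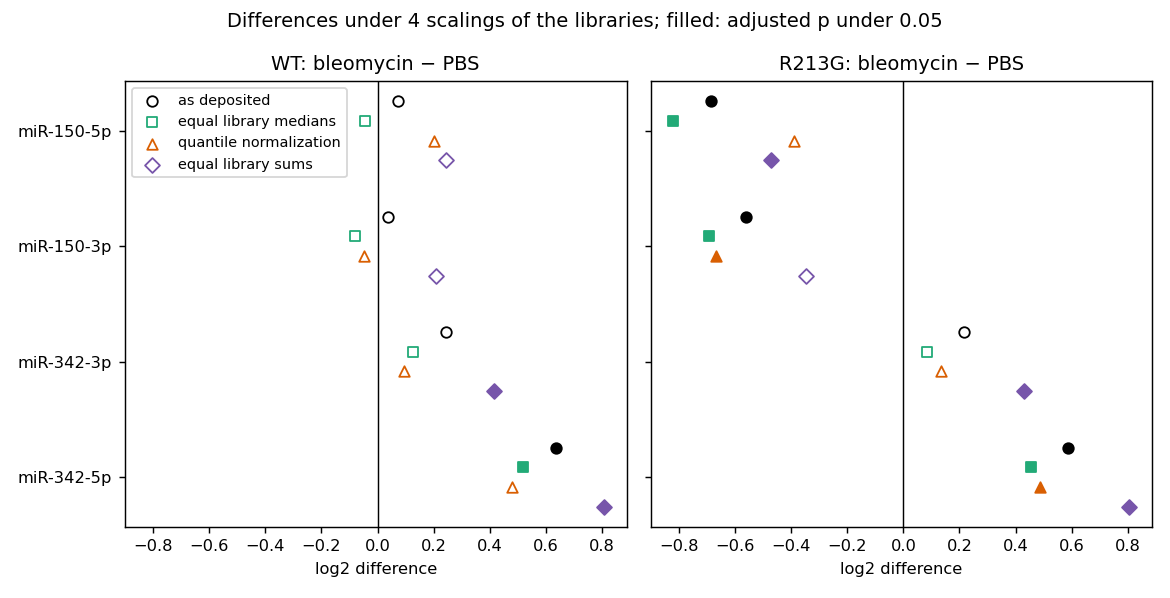
Bleomycin minus PBS log2 differences (horizontal axis) of the 4 strands in WT (left) and R213G (right) under the deposited scaling and 3 others; filled symbols have an adjusted p under 0.05. In R213G both miR-150 strands stay below 0 under all 4 scalings, between -0.82 and -0.35, while in WT they fall on either side of 0.

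Differences between strands of 1 library are free of any common scaling factor, and 16 of them were tested by exact two-sided permutation. The level of miR-150-5p over miR-342-3p, the abundant strands, was 3.71 ± 0.20 (SD, n = 4) in R213G PBS. After bleomycin it was 2.81 ± 0.38 (SD, n = 4). The 4 PBS values lay between 3.47 and 3.95 and the 4 bleomycin values between 2.29 and 3.19, so the groups did not overlap. In R213G miR-150-5p alone separated downward and miR-342-3p alone upward, so this lack of overlap follows from those levels. The change of -0.90 had an exact permutation p of 0.0286, the smallest that 4 against 4 can give, and 0.183 adjusted over the 16 tests. In WT the same quantity was 3.20 ± 0.16 (SD, n = 3) after PBS and 3.03 ± 0.09 (SD, n = 4) after bleomycin. That change of -0.17 had an exact permutation p of 0.229, where 3 against 4 cannot go below 0.0571.

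Among the scarce strands, miR-150-3p over miR-342-5p changed in R213G from 1.02 ± 0.19 to -0.13 ± 0.15 (SD, n = 4 each), again without overlap. The change of -1.15 had an exact permutation p of 0.0286 (adjusted 0.183). In WT it went from 0.47 ± 0.24 (SD, n = 3) to -0.12 ± 0.33 (SD, n = 4), with an exact permutation p of 0.0571 (adjusted 0.183). After bleomycin the scarce strands thus stood at nearly the same level in both genotypes, whereas after PBS miR-150-3p was the higher one in all 7 libraries. With these group sizes no p adjusted over the 16 tests can go below 0.05.

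The ratio of the strands within each hairpin was compared in the same way. The log2 excess of miR-150-5p over miR-150-3p was 8.55 ± 0.32 in WT PBS (SD, n = 3), and 8.58 ± 0.19, 8.55 ± 0.16 and 8.42 ± 0.16 in WT bleomycin, R213G PBS and R213G bleomycin (SD, n = 4 each). Its bleomycin change was 0.04 in WT (exact permutation p = 0.914) and -0.13 in R213G (exact permutation p = 0.286). The excess of miR-342-3p over miR-342-5p was 5.82 ± 0.25 in WT PBS (SD, n = 3) and 5.43 ± 0.31 in WT bleomycin (SD, n = 4). In R213G it was 5.85 ± 0.10 and 5.48 ± 0.34 (SD, n = 4 each). These changes of -0.39 and -0.37 had exact permutation p-values of 0.114 and 0.0857, where the test cannot go below 0.0571 in WT.

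**Figure D4:**
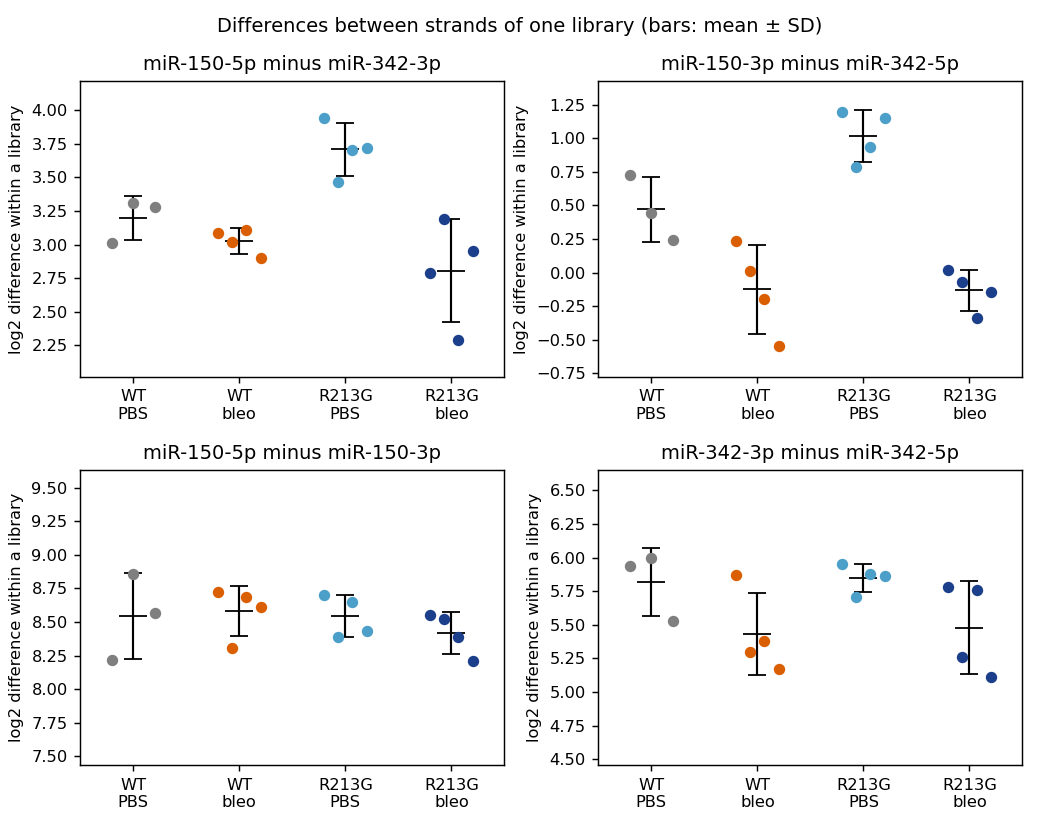
Log2 difference between 2 strands of the same library (vertical axis), by group; points are libraries and bars the mean ± SD. In the upper panels the R213G PBS libraries (3.47 to 3.95 on the left) stand above every other group, on the right too.

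Comparing the genotypes after PBS asks whether the variant alone goes with another level. No strand passed. By limma 0 of 818 miRNAs were called (0.0%), with 44 (5.38%) at an unadjusted p under 0.05, and the authors' deposited table has 0 at a q-value under 0.05. The miR-150 strands did separate. All 4 R213G PBS libraries of miR-150-5p (16.32 to 16.70) lay above all 3 WT PBS libraries (15.82 to 16.18), and those of miR-150-3p (7.88 to 7.99) above theirs (7.32 to 7.60). Such a separation upward was seen for 4.16% of the tested miRNAs. The log2 difference by limma was 0.46 ± 0.16 for miR-150-5p (SE, adjusted p = 0.622, unadjusted 0.0106) and 0.46 ± 0.17 for miR-150-3p (SE, adjusted p = 0.711, unadjusted 0.0139). The miR-342 strands overlapped, with differences of -0.055 (interval -0.31 to 0.20) for miR-342-3p and -0.085 (interval -0.46 to 0.29) for miR-342-5p.

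After bleomycin no strand differed by genotype beyond the threshold either, with 0 of 818 called by limma (0.0%), 97 (11.9%) at an unadjusted p under 0.05 and 0 at a q-value under 0.05 in the authors' deposited table. The difference for miR-150-5p was -0.30 ± 0.15 (SE, adjusted p = 0.435), and 3 of the 4 R213G libraries lay below all WT libraries. For miR-150-3p it was -0.14 (interval -0.47 to 0.19), for miR-342-3p -0.08 (interval -0.32 to 0.16) and for miR-342-5p -0.13 (interval -0.47 to 0.21). In order, the group means of miR-150-5p were 16.47 in R213G PBS, 16.09 in WT bleomycin, 16.02 in WT PBS and 15.79 in R213G bleomycin. Neighbours in that order overlapped in every case, and the first and the last group did not. For miR-150-3p the same order held, with 7.93 ± 0.05, 7.51 ± 0.25, 7.47 ± 0.14 and 7.37 ± 0.28 (SD), and R213G PBS lay above every library of the next group. The miR-342 strands were ordered by treatment. For miR-342-3p the means were 13.06 ± 0.24 in WT bleomycin, 12.98 ± 0.14 in R213G bleomycin, 12.82 ± 0.05 in WT PBS and 12.76 ± 0.12 in R213G PBS (SD), and only the middle pair of neighbours did not overlap. In that order miR-342-5p had 7.63 ± 0.19, 7.50 ± 0.28, 6.99 ± 0.21 and 6.91 ± 0.19 (SD), and all neighbours overlapped.

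The interaction, the R213G bleomycin difference minus the WT one, tests whether the genotypes respond differently. For miR-150-5p it was -0.76 ± 0.22 (SE, interval -1.21 to -0.30) with an adjusted p of 0.523 by limma over 818 miRNAs, against 0.00271 unadjusted. For miR-150-3p it was -0.60 ± 0.23 (SE, adjusted p = 0.523 by limma, unadjusted 0.0177). Over all miRNAs 0 were called (0.0%), with 65 (7.95%) at an unadjusted p under 0.05. A genotype difference in the miR-150 response was therefore not established over the whole table, although the R213G fall passed and the WT difference did not. The estimate for miR-150-5p combines a higher PBS level and a lower bleomycin level in R213G. For miR-342-3p and miR-342-5p the interactions were -0.03 (interval -0.38 to 0.33) and -0.05 (interval -0.55 to 0.46), and these intervals leave room for sizeable genotype differences.

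Averaged over the genotypes, miR-342-5p rose by 0.61 ± 0.12 (SE, adjusted p = 0.000511 by limma). This average uses the same libraries as the separate comparisons, and 50.7% of all tested miRNAs were called in it. The averages of -0.31 for miR-150-5p (adjusted p = 0.0256) and 0.23 for miR-342-3p (adjusted p = 0.0296) passed, and that of -0.26 for miR-150-3p (adjusted p = 0.065) did not. Those 3 changed sides of the threshold with the scaling or with 1 library left out, unlike that of miR-342-5p. In the authors' deposited table, the q-values of the parametric test for bleomycin in R213G were 0.0557 for miR-150-5p, 0.117 for miR-150-3p, 0.0884 for miR-342-5p and 0.185 for miR-342-3p, none of them under 0.05. In WT they were 0.169 for miR-342-5p, 0.437 for miR-342-3p, 0.838 for miR-150-5p and 0.904 for miR-150-3p.

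Other lymphocyte-linked miRNAs were looked at beside the 4 strands. The list also held miR-181a-5p and miR-181b-5p, which tune antigen receptor signalling, miR-155-5p, induced in activated lymphocytes and macrophages, and miR-146a-5p, which restrains NF-kB signalling. Among these 4, limma called 1 higher and 2 lower in WT, leaving 1 uncalled, and 1 higher and 3 lower in R213G. Over all tested miRNAs, 16.4% were called higher and 10.3% lower in WT, and 22.2% and 19.8% in R213G. The list's medians were -0.41 and -0.63, against 0.05 over all tested miRNAs in each genotype. The riser was miR-155-5p, at 1.06 in WT and 1.00 in R213G. The log2 differences of miR-181a-5p, which fell in both, were -0.62 and -0.74, and those of miR-146a-5p, also called in both, -0.51 and -0.73. The WT call of miR-146a-5p did not survive leaving out WT bleomycin replicate 2 (-0.45, adjusted p = 0.0859) or 4 (-0.48, adjusted p = 0.0729) or WT PBS replicate 1 (-0.45, adjusted p = 0.116) or 2 (-0.38, adjusted p = 0.158). It was also lost with a replicate block (-0.45, adjusted p = 0.0679), equal sums (-0.34, adjusted p = 0.0606), no intensity trend (adjusted p = 0.0633) and quantile normalization (-0.32, adjusted p = 0.168). For miR-181b-5p the values were -0.32 (adjusted p = 0.1) and -0.52 (adjusted p = 0.00398). With quantile normalization they were 0.14 and -0.25, neither called, and without WT PBS replicate 3 the WT value was -0.45 (adjusted p = 0.0253). Counted with the 4 strands, the list of 8 had 2 calls in each direction in WT, and 2 higher and 5 lower calls in R213G. With quantile normalization the counts were 1 and 1 in WT, and 3 fell in R213G. The summed log2 level of the list, most of it miR-181a-5p, was 19.75 to 20.23 in WT PBS, 19.25 to 19.71 in WT bleomycin, 19.85 to 20.04 in R213G PBS and 19.09 to 19.51 in R213G bleomycin. These miRNAs are not restricted to lymphocytes, and expression by cell type was not measured here.

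Markers of other blood cells moved in the same libraries. Of 6 myeloid and pan-leukocyte miRNAs, 4 rose in WT (background 16.4%) and 3 in R213G (background 22.2%) and the others did not pass, with miR-142a-3p, a miRNA of all blood lineages, at 1.198 and 0.854 and the macrophage miRNA miR-511-3p at 1.25 and 1.74. For miR-142a-5p the values were 0.680 (adjusted p = 0.00061 by limma) and 0.213 (adjusted p = 0.137). For miR-223-3p they were 0.247 (adjusted p = 0.282) and -0.181 (adjusted p = 0.356), with opposite signs. Its partner miR-223-5p was called in both genotypes (1.046 in WT and 0.71 in R213G). The partner strand miR-511-5p was called in neither, at 0.33 (adjusted p = 0.476) in WT and 0.505 (adjusted p = 0.179) in R213G. In R213G, miR-142a-5p was called with equal sums (0.43) and quantile normalization (0.41), and miR-223-3p was at 0.03 with equal sums. The summed log2 level of the 6 was 15.71 to 15.95 in WT PBS, 16.31 to 16.90 in WT bleomycin, 16.14 to 16.27 in R213G PBS and 16.34 to 16.53 in R213G bleomycin. Of 7 erythroid miRNAs, a list for blood left in the flushed lung, 6 fell in WT (background 10.3%) and 5 in R213G (background 19.8%), with medians of -2.20 and -1.44. Among them miR-486a and miR-486b are near-identical copies, so their rows are not separate results. The R213G falls were those rows and miR-144-5p (-1.25). In WT miR-144-3p did not pass (-0.983, adjusted p = 0.197). In R213G miR-144-3p was at 0.14 (adjusted p = 0.84) and miR-451a at -0.52 (adjusted p = 0.355), neither called. Without R213G bleomycin replicate 3, miR-451a was called (-0.981, adjusted p = 0.0481). The sign of miR-144-3p turned there (-0.40), with array weights (-0.05) and without R213G PBS replicate 4 (-0.19). The summed erythroid level was 17.30 to 18.59 in WT PBS, 15.34 to 15.89 in WT bleomycin, 17.07 to 18.59 in R213G PBS and 16.02 to 17.82 in R213G bleomycin. None of the listed markers was at 0 in any library. In the lists of lung cells the calls made on the deposited values were falls, against the same backgrounds. They were 0 of 2 endothelial strands in WT and 1 in R213G, 2 and 3 of 4 smooth muscle miRNAs, and 2 and 5 of 7 epithelial miRNAs. Scaling changed these counts and, for some strands, the direction. With equal sums 0 smooth muscle miRNAs fell in either genotype and the endothelial strand miR-126a-5p was called higher in WT (0.43, adjusted p = 0.0103) and R213G (0.36, adjusted p = 0.0124). With quantile normalization the epithelial miR-141-3p was called higher in R213G (0.35, adjusted p = 0.0107). Single libraries changed them too. Smooth muscle falls numbered 1 in WT without WT PBS replicate 1 and 1 in R213G without R213G PBS replicate 1. The endothelial fall in R213G was lost without R213G bleomycin replicate 4, and 1 endothelial strand was called higher in WT without WT PBS replicate 2. Epithelial falls in WT numbered 0 without WT PBS replicate 3. They numbered 1 without R213G bleomycin replicate 1, WT bleomycin replicate 1, 2 or 4, WT PBS replicate 1 or 2 or any R213G PBS replicate. In the genotype comparisons and the interaction, no member of any list was called.

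Set against miR-150-5p, the erythroid level did not move in step in every group. It fell in WT, where the miR-150-5p difference was 0.07. In R213G PBS, replicates 1 and 3 had the higher erythroid sums (18.59 and 18.55 against 17.68 and 17.07) and also the higher miR-150-5p levels (16.70 and 16.53 against 16.33 and 16.32). Those replicates also have the lower sample codes, so code and erythroid level cannot be told apart there. In R213G bleomycin, replicate 3 had the highest erythroid sum (17.82) and the lowest miR-150-5p level (15.47). Replicates 2, 4 and 1 of that group stood in the same order for both. Their erythroid sums were 16.95, 16.09 and 16.02 and their miR-150-5p levels 16.10, 15.85 and 15.71. The part of blood or of leukocyte influx in the miR-150 values was not tested.

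**Figure D5:**
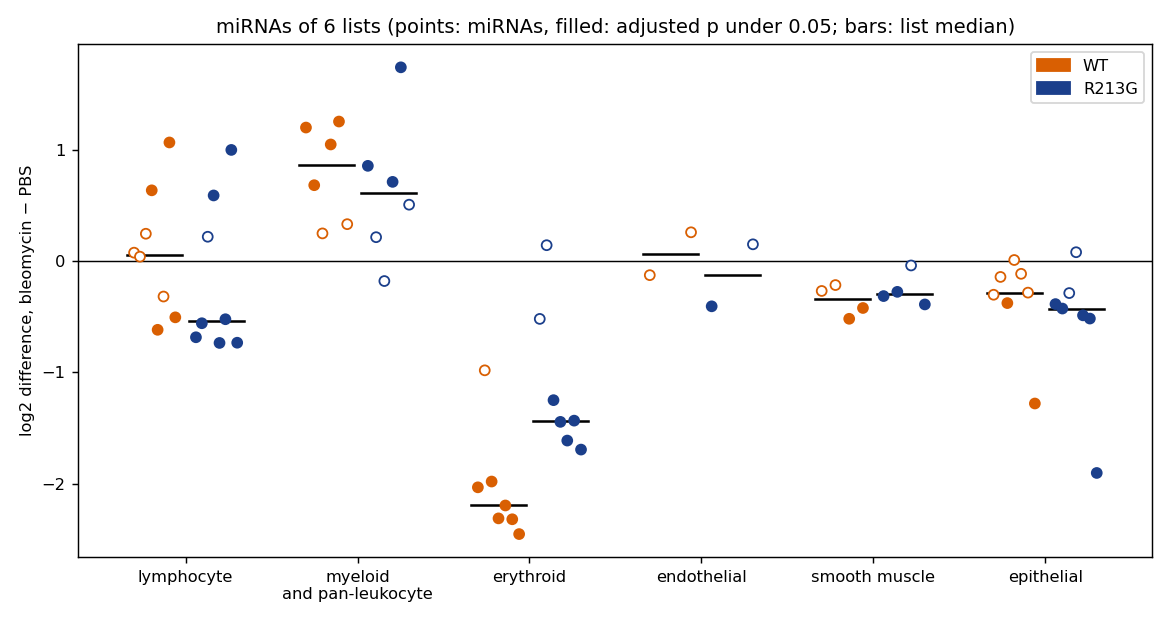
Bleomycin minus PBS log2 differences (vertical axis) of the members of 6 miRNA lists in WT and R213G; points are miRNAs, filled where the adjusted p is under 0.05, and bars are list medians. Lymphocyte-linked miRNAs went both ways, the called myeloid and pan-leukocyte miRNAs lie above 0 and the called erythroid miRNAs below it.

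Likeness of profile was measured as the root mean square difference between log2 profiles over the 15 libraries, each centred on its own mean, among 817 other tested miRNAs. For miR-150-5p, whose own profile departs from its mean by 0.32 in this measure, miR-150-3p was at rank 4 with 0.186. Ahead of it were miR-3061-3p (0.175), miR-423-5p (0.175) and miR-423-3p (0.177), and behind it miR-16-5p (0.204) and miR-484 (0.217). Those 5, picked for likeness over these same libraries, had WT differences between -0.10 and -0.03 and R213G differences between -0.74 and -0.31. For miR-150-3p the nearest were miR-484 (0.180), miR-106b-3p (0.182), miR-330-3p (0.185), miR-423-5p (0.196) and miR-211-5p (0.206), with miR-150-5p again at rank 4.

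From miR-342-3p, whose own departure is 0.18, miR-342-5p was at rank 143 with 0.300. Nearest were miR-1981-5p (0.114), miR-222-3p (0.132), miR-1198-5p (0.136), miR-27a-5p (0.142) and miR-532-5p (0.145). From miR-342-5p, with an own departure of 0.37, its guide was at rank 74, and the nearest were miR-125a-3p, miR-148a-5p, miR-218-5p, miR-501-3p and miR-16-1-3p, at 0.185 to 0.195. All 5 of these had positive bleomycin differences in both genotypes, from 0.36 to 0.70. Since the nearest profiles were picked on these same libraries, alike bleomycin differences follow from the choice. Between the hairpins the likeness was weaker, with miR-342-3p at rank 234 and miR-342-5p at rank 456 of 817 as seen from miR-150-5p. The measure favours miRNAs of small amplitude and has no replicate error of its own.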

How the data were processed

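Total RNA was extracted from frozen, ground whole lungs and made into Illumina small RNA libraries, per the labels' protocols. Bowtie2 2.3.2, SAMtools 1.9 and edgeR are named in the submitters' processing notes. No source used here states the genome build, miRBase release or scaling. The deposited table holds log2 values of 1424 miRNAs for 15 libraries. Since 1 plus a library-size-equalized count fits the values, but the table's name mentions RPKM, the unit is an inference. The authors' deposited log2 fold changes equal differences of group means, and their p-values and q-values come from Welch and Wilcoxon tests.

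A limma model (version 3.58.1, in R 4.3.3) with the 4 group means was fitted to the log2 values of all 15 libraries, letting the variance depend on the level. It covered the 818 miRNAs that exceeded 5 equalized counts in 3 or more libraries. For each of 6 contrasts, Benjamini-Hochberg adjustment ran over these 818, with calls at an adjusted p under 0.05. The fit was tested on simulated data. Strand differences within a library were tested by exact permutation. The replicate numbers of the labels were not taken to pair libraries. Named were the 4 strands, 6 lists of cell type miRNAs and the 5 nearest profiles per strand. Strands, lists and rules were chosen with earlier results of these data known, so they are no independent support. Alternatives covered scaling, filter, pseudocount, variance model, samples in the fit, a replicate block, code order, an adjusted p under 0.1 and each library left out. Scaling to equal sums was added after the data were seen. Sequences and positions are from RefSeq and GENCODE M21 on GRCm38.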

Additional observations from a re-analysis of the deposited data

Results flagged for a closer look

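Of 24 sets of 4 values examined, 2 held a value far from the other 3, and chance flags about 1 in 20 such sets. The sets are strand levels and within-library strand differences of the same libraries, so they are not independent. In WT bleomycin, replicate 1 had a miR-150-5p log2 value of 16.47 against 15.94 to 15.99 in the other 3. The same library was also highest in its group for miR-342-3p (13.39) and miR-150-3p (7.75). Without it, the WT difference of miR-150-5p was -0.05 (adjusted p = 0.807). In R213G bleomycin, replicate 3 had a miR-342-3p value of 13.18 against 12.90 to 12.92 in the other 3, together with the lowest miR-150-5p and miR-150-3p values and the highest erythroid sum of its group. Without it, the R213G difference was 0.15 for miR-342-3p and -0.58 (adjusted p = 0.00553) for miR-150-5p.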

How the results depend on the processing

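The R213G falls of miR-150-5p and miR-150-3p and the R213G rise of miR-342-5p passed with each of the 15 libraries left out, and each kept its direction under every alternative run. Quantile normalization ended the R213G call of miR-150-5p (-0.39, adjusted p = 0.0702) and the WT call of miR-342-5p (0.48, adjusted p = 0.0599). Equal library sums ended the R213G call of miR-150-3p (-0.35) and brought miR-342-3p past the threshold (0.42 in WT, 0.43 in R213G), which equal medians (0.13 and 0.08) and quantile normalization (0.10 and 0.13) lowered. The cause was not tested. The WT difference of miR-150-5p turned to -0.043 with equal medians, and that of miR-150-3p to -0.079 with equal medians, -0.047 with quantile normalization and -0.015 with array weights. In the average of the genotypes, miR-150-5p lost its call with quantile normalization (-0.10), equal sums (-0.11) and no intensity trend (-0.31), and miR-342-3p with equal medians (0.11), quantile normalization (0.11) and no intensity trend (0.23). There miR-150-3p gained one with equal medians (-0.39), quantile normalization (-0.36), the stricter filter (-0.26) and an adjusted p under 0.1 (-0.26). The interaction turned to 0.037, 0.015 and 0.019 for miR-342-3p with quantile normalization, equal sums and array weights, and to 0.009 for miR-342-5p with quantile normalization. Array weights gave 2 calls between the genotypes after bleomycin, and leaving out 1 library gave 0 to 1.

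With 1 library left out, the WT difference of miR-342-5p lay between 0.55 and 0.76, that of miR-150-5p between -0.054 and 0.16 and that of miR-150-3p between -0.044 and 0.12. The averages lay between -0.37 and -0.25 for miR-150-5p, -0.31 and -0.21 for miR-150-3p and 0.18 and 0.27 for miR-342-3p. The genotype difference of miR-342-3p after bleomycin lay between -0.16 and 0.026 and that of miR-342-5p after PBS between -0.17 and 0.036. Their interactions lay between -0.10 and 0.082 and between -0.17 and 0.074. Of the differences within a library, the genotype change of miR-150-3p over miR-342-5p after bleomycin lay between -0.15 and 0.11. That of miR-150-5p over miR-150-3p lay between -0.17 and 0.15 after PBS, and its WT bleomycin change between -0.13 and 0.19. For miR-342-3p over miR-342-5p the genotype change lay between -0.12 and 0.12 after PBS and between -0.053 and 0.20 after bleomycin.

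The replicate numbers were not taken to pair the libraries, since not every same-numbered pair had deviations correlated above 0.1. In WT the correlations ran from -0.14 to -0.04. In R213G they were 0.14, 0.26 and 0.14 for replicates 2, 3 and 4, each highest at its own number, and -0.14 for replicate 1. With a replicate block, 215 miRNAs were called in WT and 348 in R213G, against 218 and 344 without it. The block gave -0.69 for miR-150-5p in R213G (limma adjusted p = 0.00246), and no call of the 4 strands changed. Among the listed miRNAs it ended the WT calls of miR-146a-5p (-0.45) and miR-200c-3p (-0.36) and the R213G call of miR-200a-3p (-0.39). The genotype change of miR-150-5p over miR-150-3p after PBS turned from -0.002 to 0.034 with the block and to 0.006 with a pseudocount of 5. Read depth is unknown, so the counting error of the scarce strands cannot be given.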
